A study of Mus musculus with 83 samples.

Results

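Small RNAs of mouse embryonic stem cells (ESCs) were compared between *Dnmt1* KO and control cultures at day 11 after deletion of *Dnmt1* was induced. The comparison held 6 of the 83 small RNA-seq samples of the series, 3 of each genotype, chosen by their titles. The labels gave the background strain E14 and the cell type ESC for all 6, the genotype Wildtype for the controls and Dnmt1 KO for the others. The methods of the study describe *Dnmt1* loxP/loxP ESCs of strain C57BL/6 in which Cre was activated with tamoxifen, so the named strain differs between the sources. The cells were grown in serum and LIF, with or without feeder cells, and which of these applied to each culture is not given in the sources used here. No source used here says whether the replicates were separate cultures or deletions, so the p-values measure the spread between these samples, which may be technical.

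DNMT1 is the maintenance DNA methyltransferase, which copies CpG methylation to the new strand after replication. Imprinted genes are expressed from 1 parental chromosome only, which is set by methylation inherited from the germline. The Dlk1-Dio3 region is imprinted and carries a very large group of miRNAs, processed from the noncoding transcripts of the maternal chromosome (Meg3, the Rtl1 antisense transcript, Rian and Mirg). A miRNA is cut from a hairpin into a short mature strand, which is loaded into an Argonaute protein such as AGO2 and pairs with its targets mainly through its seed, bases 2 to 8.

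The sequences below belong to the miRNAs that the comparison turned on, with the seed in capitals. They were taken from RefSeq mouse mature miRNAs (GRCm38.p6), which 246 of the 287 miRNA features tested matched. The counts were made per hairpin, so a value covers both arms of the hairpin, and 1 arm of each is shown. The first set was higher in *Dnmt1* KO and lies in Dlk1-Dio3, where it shows that neighbouring miRNAs carry unrelated seeds, that miR-758 and miR-1197 share a seed, and that miR-381 and miR-300 differ inside theirs.
mmu-miR-127-3p: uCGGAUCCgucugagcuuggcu
mmu-miR-541-5p: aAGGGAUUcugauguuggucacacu
mmu-miR-758-5p: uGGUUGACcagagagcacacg
mmu-miR-1197-5p: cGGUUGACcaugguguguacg
mmu-miR-381-3p: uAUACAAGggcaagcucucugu
mmu-miR-300-3p: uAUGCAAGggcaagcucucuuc
mmu-miR-370-3p: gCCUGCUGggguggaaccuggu

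The second set was higher in *Dnmt1* KO and lies elsewhere: the leading members of the X-linked cluster, miR-335 from the imprinted gene Mest, and miR-142.
mmu-miR-871-3p: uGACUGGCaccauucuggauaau
mmu-miR-470-5p: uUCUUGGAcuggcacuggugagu
mmu-miR-881-3p: aACUGUGUcuuuucugaauaga
mmu-miR-335-5p: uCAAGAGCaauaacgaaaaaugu
mmu-miR-142a-5p: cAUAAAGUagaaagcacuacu

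The third set was lower in *Dnmt1* KO. Its first 6 members lie in 3 different clusters and share 1 seed, AAAGUGC, and miR-182 was the most abundant of the miRNAs that fell.
mmu-miR-93-5p: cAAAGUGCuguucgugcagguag
mmu-miR-17-5p: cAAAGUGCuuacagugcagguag
mmu-miR-20a-5p: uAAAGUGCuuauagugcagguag
mmu-miR-20b-5p: cAAAGUGCucauagugcagguag
mmu-miR-106a-5p: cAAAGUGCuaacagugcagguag
mmu-miR-106b-5p: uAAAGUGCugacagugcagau
mmu-miR-182-5p: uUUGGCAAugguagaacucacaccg

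The day 11 libraries held 2427387 to 4192990 reads in features for the controls and 4257450 to 5659536 for *Dnmt1* KO, so the shallowest library put 10 RPM (reads scaled to the library's per-million total) at about 24.3 reads. miRNA features took 56.5% ± 1.65 (SD, n = 3) of the per-million total in the controls and 57.1% ± 0.68 (SD, n = 3) in *Dnmt1* KO, a difference of 0.57 points (two-sided exact permutation test, p = 0.6, where 0.1 is the smallest p that 3 against 3 can give). Without the 5 most abundant features the difference was 7.15 points (p = 0.1 in the same exact test). Markers of ESCs, the miR-290-295 cluster, summed (here and below before scaling) to 125999 to 128558 RPM in the controls and 110644 to 118488 in *Dnmt1* KO, and none of the 7 was called. All 7 fibroblast markers together summed to 19595 to 21638 RPM in the controls and 24057 to 27390 in *Dnmt1* KO. Of the 6 tested, 3 were higher (Mir143, Mir145 and Mir21), where 5.96% of all features were, and Mir199a-1 was at 0. The 7 blood markers summed to 768 to 843 and 1841 to 2318 RPM, with Mir142 and Mir150 higher. The 5 endoderm markers summed to 1030 to 1178 and 859.9 to 915 RPM, with Mir122a at 0. Of the 2 tested, Mir375 was higher (log2 fold change 1.13), and Mir192 went the other way without being called (-0.29). The neural markers summed to at most 3.00 RPM, with Mir9-2 at 0, and the muscle markers to at most 0.412, with 4 of 5 at 0. The part of these markers in the results was not tested. A lower number of cells of 1 kind and less RNA per cell cannot be told apart in such libraries.

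Most of the miRNA features called at day 11 were higher in *Dnmt1* KO. Of 2582 features tested, 154 were higher and 69 lower in *Dnmt1* KO, 5.96% and 2.67% of all (8.64% in either direction). Among the 287 miRNA features, 92 were higher, 15 were lower, and the median log2 fold change was 0.21, against -0.07 over all features. Of these 92, 45 came from Dlk1-Dio3, 9 from a cluster on the X chromosome and 38 from elsewhere. Outside miRNAs and the features that overlap one, 45 were higher and 46 lower of 2041. A feature was called at an adjusted p (Benjamini-Hochberg over all features) under 0.05 in limma, fitted on log2(RPM + 1) after scaling between libraries. Levels below are RPM after that scaling (scaled RPM), and fold changes are on the log2(RPM + 1) scale, which understates changes of low features.

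The split outside miRNAs leaned on the scaling. With scaling factors computed without Dlk1-Dio3 it became 67 higher and 26 lower, and with median-ratio factors 66 higher and 28 lower. Over all features the corresponding splits were 199 to 37 and 197 to 43, and the median of all features moved from -0.07 to 0.02 and 0.01. Among miRNAs it was 102 to 8 without Dlk1-Dio3 in the factors.

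**Figure D1:**
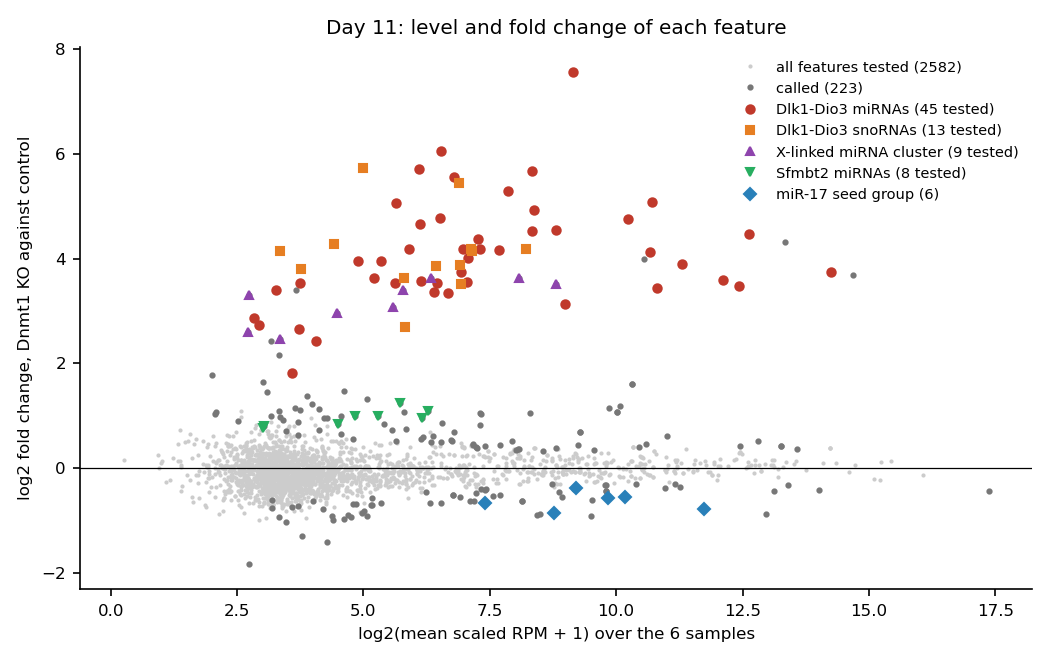
Each point is 1 of the 2582 features tested: the x axis gives log2 of its mean scaled RPM + 1 over the 6 samples, the y axis its log2 fold change of *Dnmt1* KO against control. The Dlk1-Dio3 miRNAs lie between 1.81 and 7.57 and the X-linked cluster between 2.46 and 3.63, above nearly all other features, and the miR-17 seed group lies below 0.

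Dlk1-Dio3 miRNAs rose as a whole block. All 45 tested of the 56 features were higher in *Dnmt1* KO, against 5.96% of all features, with a median log2 fold change of 3.96. Together they made up 0.644%, 0.631% and 0.583% of the control libraries and 9.62%, 8.53% and 8.30% of the *Dnmt1* KO libraries. The other 11 features were too low to test, 6 of them at 0 in all time course libraries and the highest at 6.92 RPM. Because a feature may pass the filter through its KO samples alone, the 23 with at least 10 scaled RPM in every control were also taken by themselves: all 23 were higher, by 3.12 to 5.08, where 6.70% of the 1432 features of that level were higher.

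The most abundant member was Mir127, which lies antisense to the retrotransposon-derived gene Rtl1 (NCBIM37 chromosome 12, 110831042 to 110831138, plus strand). It stood at 2839, 2728 and 2445 scaled RPM in the controls and at 41063, 34779 and 32242 in *Dnmt1* KO. Every KO sample was thus more than 10 times above every control (log2 fold change 3.75, SE 0.18, adjusted p = 1.63e-20 in limma). The other antisense members kept close to it, Mir433 with a log2 fold change of 3.75, Mir434 with 3.597, Mir136 with 3.43 and Mir431 with 3.12. Mir431 was the smallest of the 5 and still went from 97.7, 104 and 105 scaled RPM to 1058, 882 and 776.

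Mir541, near the distal end of the miR-379-410 cluster inside the transcript Mirg (chromosome 12, 110980619 to 110980708), had the smallest adjusted p of all features. It stood at 563, 537 and 528 scaled RPM in the controls and at 13304, 11182 and 11736 in *Dnmt1* KO (log2 fold change 4.47, SE 0.12, adjusted p = 4.47e-28 in limma). The spread within either group was small against the gap between them. All 27 tested of the 31 features of this cluster were higher, with a median of 4.13.

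The change was not uniform along the cluster. Mir381 went from 107, 94.4 and 85.6 scaled RPM to 3771, 3019 and 3004 (5.08, SE 0.16), while its near relative Mir300 went from 185, 173 and 163 to 3403, 2935 and 2869 (4.13, SE 0.19). Mir381 therefore stood below Mir300 in each control and above it in each KO sample. Mir758 showed the largest fold change of all features, from 4.27, 5.84 and 4.48 to 1404, 981 and 982 scaled RPM, 231 times (7.57, SE 0.29, adjusted p = 2.79e-23 in limma). Its control values rested on 11 to 24 reads, and 20 bases of its hairpin also occur in 1 other feature. Mir1197, which carries the same seed on its 5p arm and lies within 1 kb of it, had 2.66 (SE 0.30). Mir496 had the smallest change of the cluster, from 5.34, 3.16 and 4.48 to 29.2, 27.4 and 25.16 scaled RPM (2.42). Mir379 (4.15) at the start of the cluster and Mir369 (4.18) near its end lay close to the median.

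Upstream, the 6 miRNAs near Meg3 were all higher with a median of 4.24 (1.81 to 5.68). Mir540 went from 13.6, 11.19 and 9.38 scaled RPM to 792, 575 and 543 (5.68, SE 0.26). Mir493, also in this group, went from 7.21, 4.13 and 2.45 to 19.6, 14.9 and 18.2 (1.81, SE 0.26), the smallest change among the Dlk1-Dio3 miRNAs. In Rian, Mir370 rose from 4.01, 1.22 and 0.815 to 220.0, 157 and 169.9 scaled RPM (6.06, SE 0.27), with only 2 to 15 reads in the controls. Mir341 rose from 33.6, 34.8 and 37.1 to 1055, 774 and 741 (4.55, SE 0.14).

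**Figure D2:**
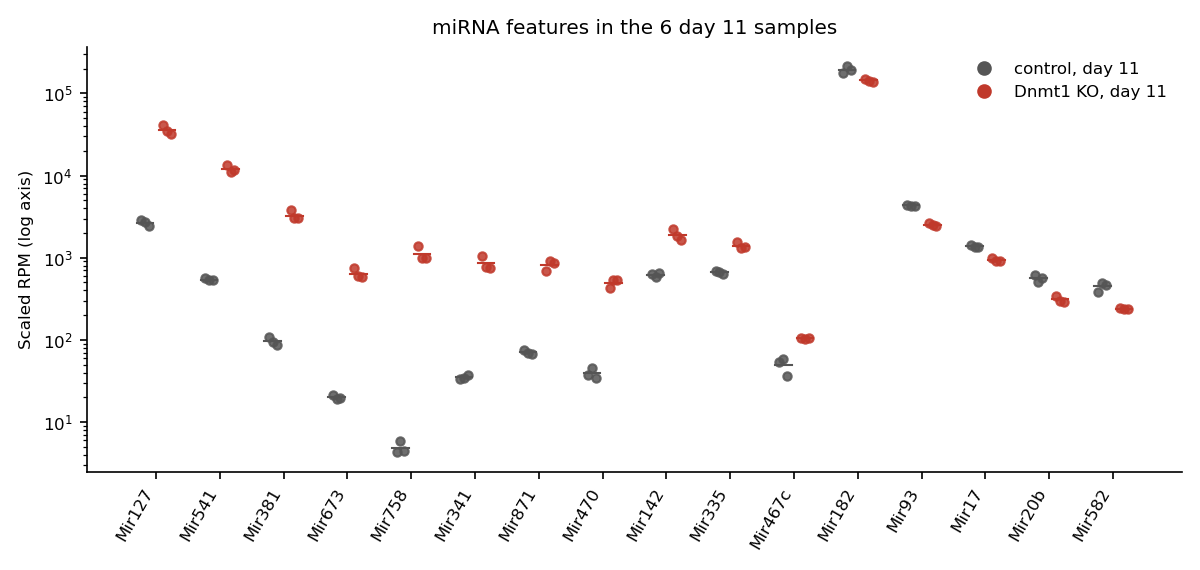
Scaled RPM (log axis) of 16 miRNA features in the 3 control and 3 *Dnmt1* KO samples, with a line at each mean. Mir127, Mir541, Mir381, Mir673, Mir758 and Mir341 are from Dlk1-Dio3, Mir871 and Mir470 from the X-linked cluster. The 16 were picked from called features, so that their groups do not overlap is no separate result (31.6% of all features did not overlap).

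The host transcripts were counted high too, but largely through the miRNAs inside them. Rtl1 had a log2 fold change of 3.69, Rian 3.99, Mirg 4.33 and Meg3 3.39, and all 4 were called. Of the reads in Rtl1 99.99% or more, and in Mirg 99.9% or more, fell in smaller features lying within the gene. In Rian this share was 59.9% to 84.3%, and in Meg3 42.9% to 100%, with 3 to 7 reads per control in Meg3 altogether. Rtl1 is on the minus strand and the miRNAs within it on the plus strand, so the counts did not separate strands. Of the features with clone names, 5 were matched to RefSeq by position, 3 of them on the other strand of a known hairpin, and the values of Mir409 (4.75) and Mir380 (4.37) were taken from such features.

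Box C/D snoRNAs of the region, which are encoded in arrays in Rian, moved alongside. All 13 tested of 23 features were higher, by 2.69 to 5.74 (median 4.15), but 3 of them had no more than 3 reads in any control. The 6 with at least 10 scaled RPM in every control were all higher, by 2.69 to 4.18, where 6.70% of all features of that level were. The SNORD113 copy at 110887827 went from 34.4, 26.7 and 29.8 to 610.0, 549 and 531 scaled RPM (4.18, SE 0.18, adjusted p = 5.66e-22 in limma). AF357341 had 4.18, AF357428 3.89 and AF357355 3.52. The snoRNA fragments and miRNAs of the region thus had medians of 4.15 and 3.96, but they parted in the AGO2 libraries described further on.

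**Figure D3:**
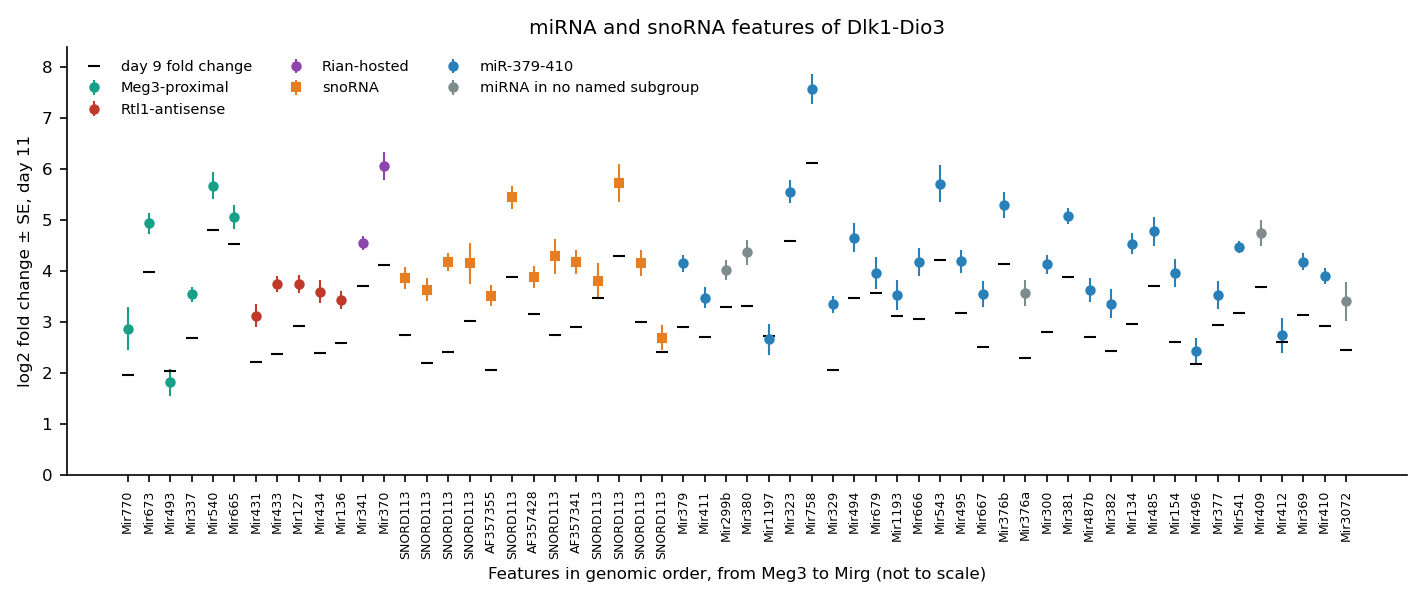
log2 fold change at day 11 (points, with SE) and at day 9 (black dashes) of the tested miRNA and snoRNA features of Dlk1-Dio3 in genomic order. Every point lies above 0, and Mir493 (1.81) and Mir758 (7.57) mark the ends of the range.

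The distance between the genotypes in Dlk1-Dio3 grew with time. The median log2 fold change of the 45 miRNAs was 0.08 at day 1, 0.68 at day 3, 3.15 at day 6, 2.93 at day 9, 3.96 at day 11 and 8.04 at day 25. Against day 9, 18 of the 45 had a larger fold change at day 11 and none a smaller one (4.84% of all features differed between these days in either direction). Between day 11 and day 25, 43 increased further (20.7% of all features differed), and against day 1 all 45 were larger (9.22%). The 3 differences use the same day 11 samples, and the day 25 libraries were shallower, at 521066 to 815523 reads. *Dnmt1* KO held 8.42%, 8.82% and 12.4% of reads in these miRNAs at days 9, 11 and 25, whereas the controls held 1.12%, 0.62% and 0.0107%, so most of the growth after day 9 was in a falling control level. Mir127 stood at 5260.2, 2671 and 34.7 scaled RPM in the controls on these 3 days and at 39712, 36028 and 44737 in *Dnmt1* KO.

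**Figure D4:**
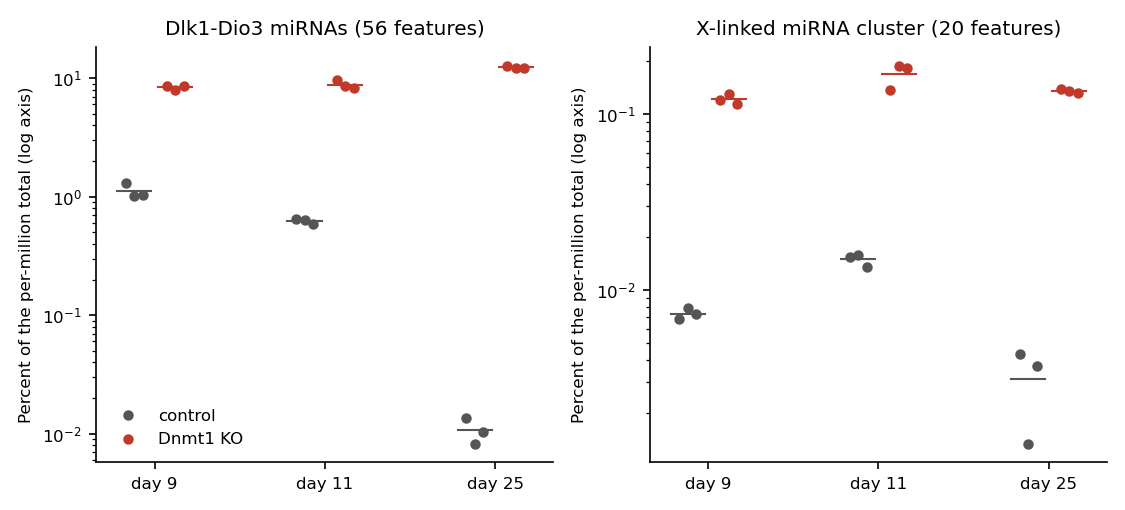
Percent of each library's per-million total (log axis) in the Dlk1-Dio3 miRNAs (left) and the X-linked cluster (right) at days 9, 11 and 25, one point per sample with a line at the mean. On the left the control means fall from 1.12% to 0.0107% while the *Dnmt1* KO means lie between 8.42% and 12.4%.

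A cluster of testis-enriched miRNAs on the X chromosome, known for its expression in male germ cells, rose from a low level. All 9 tested of 20 features were higher in *Dnmt1* KO, with a median log2 fold change of 3.299 (2.46 to 3.63), against 5.96% of all features. Members low in the controls may have passed the filter through their KO samples alone, so this count is no separate support. The 3 with at least 10 scaled RPM in every control, Mir871, Mir470 and Mir881, were all higher, by 3.51 to 3.63. Among all 1432 features of that level 6.70% were higher. Of the 11 features too low to test 5 were at 0, and the highest reached 9.89 RPM. Mir871 (X, 64063603 to 64063679, minus strand) stood at 75.8, 70.0 and 66.9 scaled RPM in the controls and at 689, 905 and 869 in *Dnmt1* KO (3.51, SE 0.22, adjusted p = 1.46e-16 in limma). Mir470 went from 37.1, 46.0 and 34.2 to 422, 535 and 531 (3.63, SE 0.24). Mir881 went from 10.9, 11.7 and 10.6 to 124, 176 and 146 (3.62, SE 0.28). In all 3 the lowest KO sample lay more than 9 times above the highest control.

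The remaining members were lower in level. Mir463 had a log2 fold change of 3.07, Mir878 3.39, Mir743b 2.96, Mir471 2.60 and Mir465 2.46. Mir741 had 0 or 1 read in each control and 8.43 to 14.3 scaled RPM in *Dnmt1* KO, so its fold change of 3.299 depends on the added 1 RPM. The median of the cluster was 0.20 at day 1, 2.85 at day 3, 3.37 at day 6 and 3.48 at day 9, where the Dlk1-Dio3 median was 0.68 at day 3, and the 2 groups were not tested against each other. None of the 9 differed between day 9 and day 11 (4.84% of all features did), and 4 increased between day 11 and day 25 (20.7% differed). At day 25 the controls held 0.00311% of reads in the cluster against 0.0149% at day 11. The share in *Dnmt1* KO was 0.168% ± 0.0275 (SD, n = 3) at day 11.

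The miRNAs within an intron of Sfmbt2, a Polycomb-related gene imprinted in mouse, were about doubled. Of 119 features only 8 were abundant enough to test, and 90 were at 0. Of the 8 tested, 7 were higher, with a median of 0.97, where 5.96% of all features were higher. The 7 included all 6 with at least 10 scaled RPM in every control, where 6.70% of all features of that level were higher. Mir467c went from 54.2, 58.6 and 35.9 scaled RPM to 104, 102 and 106 (1.08, SE 0.15, adjusted p = 5.19e-07 in limma), Mir467d by 0.96 and Mir669c by 1.25. The controls of Mir467c spread widely but stayed below every KO sample. These hairpins share stretches with many others, and 20 bases of Mir669c occur in 45 other features, so the reads cannot be assigned to single members. At day 25 the order was turned round, with a median of -1.44. All 8 had a lower fold change than at day 11 (20.7% of all features differed between these days in either direction). Sfmbt2 itself, whose reads fell at 98.7% to 99.2% in such smaller features, went from 216, 217 and 182.2 to 419.8, 422 and 432 scaled RPM (1.05, SE 0.09).

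Of 25 other imprinted features 10 were abundant enough to test, 7 were higher and 1 was lower, against 5.96% and 2.67% of all features. Some may have passed the filter through 1 genotype only. Of the 6 with at least 10 scaled RPM in every control, 5 were higher and 0 lower. Among all 1432 features of that level 6.70% were higher and 4.61% lower. Mest and Mir335 inside it count the same reads, 99.6% or more of those in Mest, so they are 1 result. Mir335, in the paternally expressed Mest, was the clearest: 691, 662 and 639 scaled RPM in the controls and 1539, 1322 and 1338 in *Dnmt1* KO (1.07, SE 0.10, adjusted p = 5.62e-12 in limma). Its fold change was larger than at day 9, by 0.60 (adjusted p = 0.00525 in limma), and it stood at 0.13 at day 25. Mir298 (0.51) and Mir296 (0.52), which lie in the Gnas region, were also higher. Peg3 (1.08), a zinc finger gene, and Peg10 (0.65), a retrotransposon-derived gene, held no smaller annotated feature with reads. H19, a noncoding RNA of the maternal chromosome, went from 1.87, 0.973 and 0 to 4.56, 5.45 and 5.27 scaled RPM (1.77, SE 0.40).

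Grb10, an adaptor protein that restrains growth factor signalling, was the member that fell. It stood at 7.48, 8.999 and 11.8 scaled RPM in the controls and at 1.37, 2.72 and 1.68 in *Dnmt1* KO (-1.84, SE 0.25, adjusted p = 3.00e-07 in limma), on 28 to 37 reads per control. All 3 KO values lay below the lowest control, which the rule for naming it required. The fold change was -1.17 at day 9 and -2.84 at day 25. Igf2r (0.40) and Gnas (0.05) were not called.

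Outside Dlk1-Dio3 and the X-linked cluster, 38 of 233 tested miRNAs were higher (16.3%) and 15 lower (6.44%). Of all features 5.96% and 2.67% were. The 233 had a median of 0.07 and summed to 539327 to 588157 scaled RPM in the controls and 488198 to 520220 in *Dnmt1* KO. The 38 rose by a median of 0.75, among them the 7 of Sfmbt2 and the 3 imprinted ones just named. Mir142, a miRNA of blood cells, had the smallest adjusted p of the 38 after Mir335. It went from 641, 585 and 647 scaled RPM to 2252, 1855 and 1643 (1.61, SE 0.16, adjusted p = 1.54e-10 in limma). Mir142 made up most of the blood marker sum given above, so the rise of that sum is no separate result. Of the 4 blood markers tested, 2 were higher, where 5.96% of all features were. The log2 fold change of Mir142 was 1.35 at day 9 and -0.46 at day 25. Mir672 went from 112, 98.3 and 97.4 to 241, 192 and 206 (1.04, SE 0.15). In both the groups did not overlap, which the rule for naming them required.

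Further members of this set were Mir322 (0.82), a miR-15/16 relative on the X chromosome, and Mir150 (0.87), known from lymphocytes. Mir212 (1.37) and Mir132 (0.56), which lie side by side and share the seed AACAGUC on their 3p arms, both rose. Mir181a-2 (1.48), Mir181c (0.42) and Mir181d (0.44) were higher, 3 of the 4 tested hairpins with the seed ACAUUCA. These 2 seed groups were picked out after their values were seen. Of the p53-responsive miR-34 family (miR-449 included) 2 of 5 were called, Mir34c (0.46) and Mir34b (0.49), where 5.96% of all features were higher. The fibroblast markers Mir21 (0.41), Mir143 (0.36) and Mir145 (0.62) were also among them. Just outside the Dlk1-Dio3 miRNAs, Mir1247 near Dio3, also picked out afterwards, had 1.22.

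Fewer miRNAs fell, and the drop was modest. The 15 called had log2 fold changes of -0.89 to -0.37, with a median of -0.51. The miR-17 family, growth-promoting miRNAs with the seed AAAGUGC, supplied 6 of them, which is every tested hairpin with that seed (2.67% of all features were lower). Mir93 stood at 4396, 4319 and 4278 scaled RPM in the controls and at 2633, 2532 and 2425 in *Dnmt1* KO (-0.78, SE 0.08, adjusted p = 9.47e-11 in limma). Mir20b went from 619, 512 and 565 to 343, 295 and 292 (-0.86, SE 0.10). Mir17 went from 1437, 1364 and 1338 to 981, 921 and 908 (-0.56, SE 0.10). In each of these 3 the highest KO sample was below the lowest control, which the rule for naming them required. Mir106a (-0.67), Mir20a (-0.58) and Mir106b (-0.37) were called as well, the last not with scaling factors that left out Dlk1-Dio3 (-0.28, adjusted p = 0.0566 in limma). The seed group was set apart after these values had been seen.

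These hairpins are cut from 3 polycistronic transcripts together with miRNAs of other seeds. In the same clusters Mir25 (-0.10), Mir92-1 (-0.21), Mir363 (-0.25), Mir18 (-0.08), Mir18b (-0.21), Mir19a (-0.04), Mir19b-1 (0.00) and Mir19b-2 (-0.47) were not called, while Mir92-2 was (-0.44). Mir93 and Mir25 are neighbours in Mcm7, a replication helicase gene that holds the miR-106b-25 cluster. Mir25 stood at 7050.2, 7313 and 6772 scaled RPM in the controls and at 6929, 6527 and 6262 in *Dnmt1* KO, so its groups overlapped. The difference between seed groups was not tested. At day 9 the medians of the 3 clusters were -0.46, -1.14 and -0.57, against -0.15, -0.45 and -0.37 at day 11. 4 of the 6 members of miR-106a-363 had a smaller drop at day 11 than at day 9, where 4.84% of all features differed in either direction. For Mir20b the drop was smaller by 0.74 (adjusted p = 0.00075 in limma). Its control level went from 1000.4 scaled RPM at day 9 to 566 at day 11, its KO level from 329 to 310.0.

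**Figure D5:**
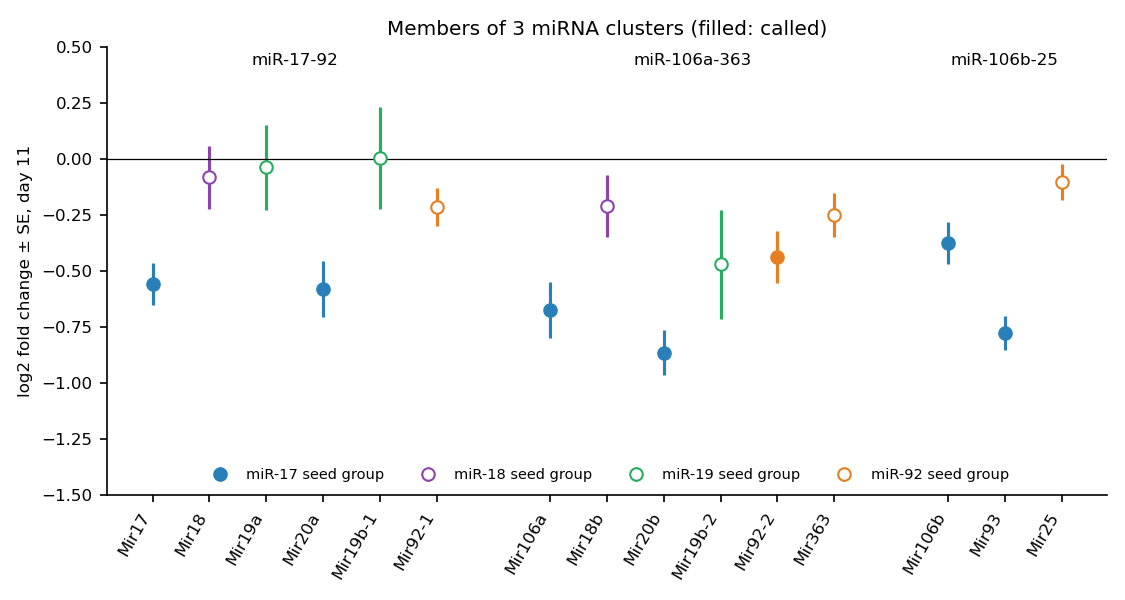
log2 fold change (with SE) of the members of 3 miRNA clusters in their order in the cluster, coloured by seed group, filled where called. The miR-17 seed group lies between -0.86 and -0.37, and of the other 9 members only Mir92-2 is filled.

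The miR-183 cluster of 3 miRNAs, linked to sensory cells and pluripotent cells, took the largest share of the reads among those that fell. It held 21.4% ± 1.58 (SD, n = 3) of the controls and 15.2% ± 0.20 (SD, n = 3) of *Dnmt1* KO. Mir182 stood at 177052, 213982 and 194001 scaled RPM in the controls and at 149797, 142536 and 139138 in *Dnmt1* KO (-0.44, SE 0.10, adjusted p = 0.00106 in limma). The call did not hold without control replicate 2, the highest (-0.32, adjusted p = 0.069). Mir183 (-0.42) and Mir96 (-0.46) were called as well. The 3 calls of the cluster fell to 1 with scaling factors that left out Dlk1-Dio3, with median-ratio factors, without control replicate 3 and without KO replicate 3, and to 0 without control replicate 2 and with the filters of 1 RPM or of 10 reads in every day 11 sample. Singletons that fell were Mir582 (-0.89), in Pde4d, from 384, 488 and 467 to 245, 237 and 236 scaled RPM, Mir674 (-0.67) and Mir130b (-0.39).

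miRNAs that define ESCs showed no call. In the miR-290-295 cluster 0 of 7 were called, with a median of -0.08 (0.01 with scaling factors that left out Dlk1-Dio3), and Mir295, its most abundant member, stood at 70077, 75302 and 71203 scaled RPM in the controls and at 66296, 63536 and 68715 in *Dnmt1* KO (-0.13, SE 0.08). In the miR-302 cluster 0 of 5 were called, with a median of 0.03. The 5 tested hairpins of both clusters with the seed AAGUGCU, which is the miR-17 seed moved by 1 base, had a median of -0.13. By contrast the median of the miR-302 cluster was -1.91 at day 6, -1.55 at day 9 and -0.90 at day 25. All 5 of its members differed between day 9 and day 11, where 4.84% of all features did. Mir302a stood at 149 scaled RPM in controls and 49.9 in *Dnmt1* KO at day 9, and at 33.9 and 40.9 at day 11, so the control was the level that differed most between the days. No member was called in the miR-200 family (0 of 5), the miR-29 and miR-148 families (0 of 5) or among miRNAs made without Drosha (0 of 5). Of the let-7 and miR-99 families, 1 of 10 was higher, Mir99b (0.40), and of the miR-15/16 family 1 of 6, where 5.96% of all features were.

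Among other small RNAs the calls were few. Outside Dlk1-Dio3, 2 box C/D snoRNAs of 124 were higher and 5 lower, of 70 box H/ACA and Cajal body RNAs 0 and 3, and of 18 spliceosomal snRNAs 0 and 1, where 5.96% and 2.67% of all features were called. Snord104 stood at 11608, 10544 and 8851 scaled RPM in the controls and at 5383, 5846 and 5497 in *Dnmt1* KO (-0.88, SE 0.09, adjusted p = 1.73e-10 in limma). Snord118, the U8 RNA that acts in rRNA processing, went from 959.9, 987 and 879.8 to 459, 522 and 519.9 (-0.91, SE 0.10). For both the groups did not overlap, which the rule for naming them required. The sign of both at day 25 was opposite (0.37 and 0.63). SNORD20 (-0.56) fell by less. The 2 that rose, Snord64 (0.70) and SNORD107 (0.72), lie in the imprinted Snrpn region of chromosome 7.

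Protein-coding genes gave few calls. Among 1673 such genes tested with no miRNA in them, 24 were higher and 28 lower, where 5.96% and 2.67% of all features were. Wwox, a tumour suppressor gene over a fragile site, went from 25.9, 27.2 and 28.9 to 8.43, 10.7 and 10.1 scaled RPM (-1.41, SE 0.25). Hnrnph1, a splicing factor, went from 33.9, 48.6 and 46.9 to 27.3, 21.1 and 18.4 (-0.92, SE 0.17), after 1.04 at day 9. The 28 lower genes had a median span of 144 kb, against 70.2 kb of the 24 higher and 47.5 kb of all 1673. Only 17 of the 28 held no small RNA gene, so the others may count reads of such genes within them. These 17 had a median span of 141 kb, against 45.1 kb of the 1383 tested genes without a small RNA gene. The median control level of the 28 was also higher, at 34.0 RPM against 10.6 of all 1673, and span was not tested apart from level. The median log2 fold change of the 28 at day 9 was -0.06. Between 8 and 28 of them stayed called under the other settings, 12 without control replicate 2 and 10 without control replicate 3. Picked out after their values were seen, Klhl13, an X-linked ubiquitin ligase adaptor, went from 3.204, 1.95 and 2.85 to 17.5, 15.1 and 13.4 scaled RPM (2.16, SE 0.33), and Ccdc30 had 1.19, with 84.6% to 88.8% of its reads in an unnamed RNA gene within it. Dnmt1 itself, whose transcript fragments say little about the deleted part, had 29.6, 32.6 and 30.6 scaled RPM in the controls and 27.8, 20.1 and 18.4 in *Dnmt1* KO (-0.49, SE 0.20, adjusted p = 0.152 in limma).

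RNA bound by AGO2 was sequenced in 4 control and 4 *Dnmt1* KO samples whose labels give no day. The study places its AGO2 pull-down at day 9 after deletion, which is another day than that of the comparison above. All 45 Dlk1-Dio3 miRNAs and all 9 of the X-linked cluster were higher in each of the 4 KO samples than in each of the 4 controls, which held for 11.7% of all features tested. Mir127 ranged from 3.203 to 176 RPM in the AGO2 controls and from 26121 to 34744 in AGO2 *Dnmt1* KO. Of the 13 Dlk1-Dio3 snoRNAs only AF357428 was above in this way, with means up to 0.62 RPM for any of them. Of the 38 other higher miRNAs 22 were above, and of the 15 lower ones 7 were below in every sample (3.06% of all features). Mir20b, Mir582, Mir674, Mir182, Mir183, Mir130b and Mir450b were those 7, whereas in Mir93 and Mir17 the groups overlapped. The AGO2 libraries held 11497719 to 25423025 reads for the controls and 1152390 to 11520132 for *Dnmt1* KO.

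Of all 2582 features 815, or 31.6%, had 3 values of one genotype wholly above the 3 of the other, against 220 of the 223 called. A second set of day 11 libraries under the same replicate names held 758613 to 1776939 reads. Of its read numbers per feature 95.9% to 96.3% were even, against 42.8% to 46.2% in the main day 11 libraries, so its reads may be counted in pairs. It also had all 45 Dlk1-Dio3 miRNAs higher, with a median of 4.07. The set shares the sample names, so it was not treated as further replicates.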

How the data were processed

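Small RNA was sequenced from ESCs (Illumina small RNA kit). The authors trimmed reads with Trim Galore 0.3.5, kept lengths of 20 to 24 nt, mapped them with Bowtie2 2.2.9 to NCBIM37 (versions from the submitters' processing notes) and counted overlaps per gene in SeqMonk; they called miRNAs by a count model together with an intensity filter. The deposited values are RPKM per feature, normalised by the authors. They were multiplied by the feature span in kb to give RPM; 100.0% of low values were whole reads (within 5%). How multiply mapping reads were counted is not given in the sources used here.

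All 36 time course libraries (6 days, 2 genotypes, 3 replicates) were scaled by the trimmed mean of M values (30% and 5% trimmed) and fitted together in limma 3.58.1 (R 4.3.3) on log2(RPM + 1) with 1 mean per day and genotype (24 residual degrees of freedom). Of 32101 features, 2582 had at least 10 RPM in at least 3 libraries. Tests were two-sided, with Benjamini-Hochberg adjustment over all 2582. The script was tested on simulated data. Named features were called features whose groups did not overlap: the 10 higher and 10 lower miRNAs outside Dlk1-Dio3, 6 in Dlk1-Dio3 and 6 higher and 6 lower other features with the smallest adjusted p, the extremes of each Dlk1-Dio3 subgroup, host genes, list members and the 3 leading day differences each way; exceptions are said where named. The members and lists were chosen with earlier results of these data known. Chi-square per degree of freedom between replicates was 7.23 to 36.8, so none was a duplicate. 16 called miRNA features share 20 bases with another feature. Alternatives were other scaling, pseudocounts, filters, sample sets, voom, a replicate block and leaving out each replicate.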

Additional observations from a re-analysis of the deposited data

Results flagged for a closer look

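These values were set aside because the *Dnmt1* KO effect differed between day 11 and another day in the joint fit (limma, adjusted p under 0.05); each is a difference of log2 fold changes.

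Between day 9 and day 11, 125 features differed. The leading increases were Mir302a (1.80), Larp7, the host gene of the miR-302 cluster (1.59), and Mir541 (1.29). The leading decreases were Hnrnph1 (-1.97), mt-Cytb (-1.60) and Malat1 (-1.03), the last a nuclear noncoding RNA.

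Between day 11 and day 25, 534 features differed. Rtl1 (6.66), Rian (6.14) and Mirg (5.53) increased, and Mir467d (-2.80), Mir467c (-2.62) and Sfmbt2 (-2.56) decreased.

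Between day 1 and day 11, 238 features differed. Mir541 (4.57), Mirg (4.37) and Mir341 (4.36) increased, and Snord118 (-1.17), a U5 copy on chromosome 1 (-1.09) and Snord104 (-0.82) decreased.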

How the results depend on the processing

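The 107 miRNA calls of day 11 stayed within 1.5 times under all 18 alternatives, at 86 to 140, and from 67.7% to 100% of all 223 calls were made again in the same direction. All tested Dlk1-Dio3 and X-linked members were called under each alternative, except with a filter of 1 RPM (46 of 47 and 13 of 15). The count of calls moved with day 11 fitted alone (422), voom (412) and the second day 11 libraries (411), whose counts are nearly all even and may be paired; outside miRNAs (91) it moved to 225, 221 and 244, and to 56 with the 1 RPM filter. The day 9 difference (125) moved to 46 with that filter, 211 over days 1 to 11 and 404 with voom; the day 25 difference (534) moved to 317 with voom, and the day 1 difference (238) to 142 with the 1 RPM filter.

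Leaving out each replicate gave 183 to 194 calls at day 11, 95 to 99 for miRNAs, 61 to 73 outside miRNAs, 78 (without control replicate 3; 82 without KO replicate 1) to 102 against day 9, 414 to 471 against day 25 and 192 to 217 against day 1. Same-numbered samples deviated together by r = 0.062, 0.024 and 0.061, and other-numbered ones by -0.102 to 0.041. With 3 samples per group such weak values cannot tell whether the numbers pair the samples. With a replicate block 227, 113 and 83 features were called, and 111, 520 and 218 for the day differences.

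Class shares changed sign for miRNA (0.57 points) without control replicate 1 (-0.17) and in the second libraries (-0.00429); for protein-coding genes (4.42) without features overlapping a miRNA (-0.072); for snRNA (-0.016) without KO replicate 2 (0.0087; range -0.042 to 0.0087); and for rRNA (-0.0011) without KO replicate 1 (0.00085; range -0.0035 to 0.00085) and in the second libraries (0.0045). The miR-290-295 cluster median turned positive with factors without Dlk1-Dio3 (0.013), with 10 reads in every day 11 sample (0.028) and with median-ratio factors (0.00035). Larp7 turned negative without KO replicate 1 (-0.095) and without control replicate 3 (-0.0011; up to 0.22 without others), and Dnmt1 positive in the second libraries (0.023); Dnmt1 was called with day 11 alone (adjusted p = 0.0208 in limma) and voom (0.042). Calls were lost for Mir106b and Mcm7 in 3 settings each, for Mir182 in 3, and for Mir130b in 5, and the miR-183 cluster had 0 to 3 calls. The causes were not tested.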
